A study of Mus musculus with 12 samples.

Results

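Tight junctions, gap junctions and desmosomes hold epithelial cells to each other, and the transcripts described here are the 42 genes of these structures that were listed in RNA sequencing of subcutaneous mouse lung tumors. They were chosen by symbol alone: claudins, occludin and the other tight junction proteins (zonula occludens scaffolds, *Ocln*, *Cgn*, *F11r*, *Marveld1* to *Marveld3*), connexins, desmogleins and desmocollins, and the plaque and envelope proteins *Dsp*, *Jup*, *Pkp1* to *Pkp4*, *Ppl* and *Evpl*. Of 77 annotated mouse genes with such a symbol, 42 were among the 15687 genes listed, namely 12 of 35 claudins, 9 of 9 other tight junction proteins, 9 of 16 connexins, 4 of 9 desmosomal cadherins and 8 of 8 plaque and envelope proteins. The other 35 genes were not analysed here.

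The tumors grew from the mouse lung cancer line mTC11, under the skin of male C57BL6/J mice that were 8 weeks old when they received 1000000 cells in Matrigel. All 12 tumors were snap-frozen on day 24. A CTL group of 6 tumors came from cells with a control short hairpin RNA and a *Filip1l*-knockdown group of 6 tumors from cells with a hairpin against *Filip1l*, delivered by lentivirus, and the comparison asks which genes change when *Filip1l* is reduced. Both groups are of WT genotype per the labels and differ in the injected cell population, a puromycin-selected mixture of transduced cells. The labels do not say which of the hairpin sequences used in the study the sequenced tumors carried. A difference made by the hairpin therefore cannot be told apart from one between the cell populations.

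In a tight junction, claudins of neighbouring cells bind each other and either seal the gap between the cells or form pores that let selected ions through. Scaffold proteins of the zonula occludens family tie them, with occludin and the MARVEL proteins, to actin. Gap junctions are channels made of connexins that pass ions and small molecules from cell to cell, while desmosomes join the keratin filaments of neighbours through desmogleins and desmocollins outside and plakoglobin, plakophilins and desmoplakin inside. Lung epithelium uses all of these, and the claudins that it carries differ between airway and alveolar cells.

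Reads on listed genes numbered 17834745 to 29502069 in the CTL group and 25460564 to 32419578 in the *Filip1l*-knockdown group. Values are normalized counts, that is reads per gene divided by the size factor of the tumor, and 1 read was worth 0.865 to 1.49 normalized counts. *Filip1l* itself had 1983 to 2542 normalized counts across the CTL group (median 2354) and 1670 to 2184 across the *Filip1l*-knockdown group (median 1935). Its log2 fold change was -0.26 (limma adjusted p = 0.00998) and the groups overlapped, so the transcript level alone does not separate the tumors by label. At the protein level, the study reported less FILIP1L by immunoblot in the knockdown mTC11 cells and by staining in their tumors. Chromosomes 14, 19 and 8 were shifted as a whole between the groups, with median log2 differences of 0.38, -0.36 and -0.20, and the values of junction genes on them are given below with those medians removed as well.

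Fold changes are *Filip1l*-knockdown minus CTL on the scale of log2(normalized count + 1), and a gene was called at an adjusted p under 0.05, over all genes, with an absolute log2 fold change over 1. By that rule 11 of the 42 junction genes (26.2%) were called, against 10.2% of all 15687 genes. They were 9 genes that rose, where 6.2% of all genes did, and 2 that fell, where 3.97% of all genes did. The genes that rose were *Cldn3*, *Cldn15*, *Cldn7*, *Cldn23*, *Cldn4*, *Tjp3*, *Gjb2*, *Gjb1* and *Dsg2*, and the genes that fell were *Cldn6* and *Gjc1*. At the adjusted p alone, 26 of the 42 (61.9%) passed, 19 higher and 7 lower, against 41.9% of all genes. The groups did not overlap for 17 of the 42 (40.5%), against 21.5% of all genes. The median log2 fold change was 0.22 over the 42 genes and 0.01 over all genes. Since the tumors are bulk tissue, fewer cells of a type and less RNA per cell cannot be told apart in any of these values.

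**Figure D1:**
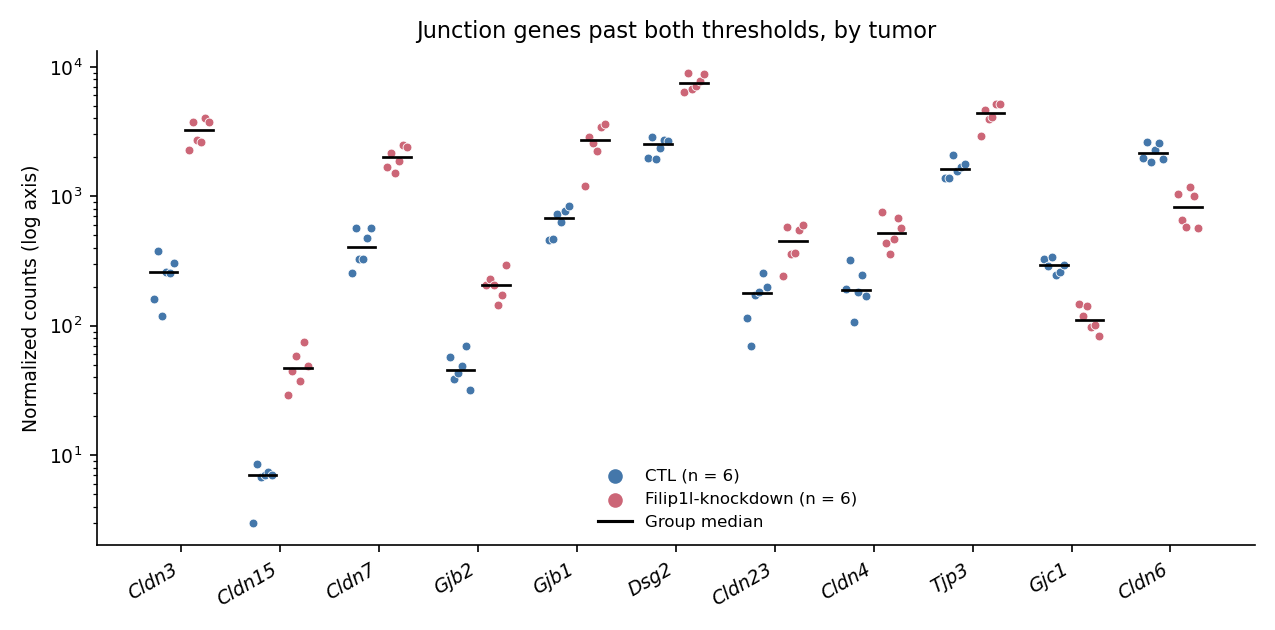
Normalized counts (log axis) of the 11 called junction genes in each of the 6 CTL and 6 *Filip1l*-knockdown tumors, with a bar at each group median. The groups are apart for 10 genes and overlap for *Cldn23*, and *Cldn3* shows the widest gap, from a CTL median of 259 to a *Filip1l*-knockdown median of 3232.

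Claudins held 6 of the 11 calls, 5 higher and 1 lower among 12 listed (50% called), against 10.2% of all genes, 6.2% higher and 3.97% lower. The stretches that end at the annotated starts of 3 of the claudins that rose, of a connexin that rose and of *Cldn2*, the most abundant claudin, which was not called, are shown here so that the start regions can be compared. They are the 250 bases before the RefSeq start on the gene's own strand (build GRCm38.p6), in lower case with matches to 5 motifs in capitals. The motifs, searched on both strands, were the Grainyhead-like motif AACNGGTT, the CAGGTG E-box bound by repressors of the Snail and Zeb families, the GC box GGGCGG, the TATA box TATAAA and the HNF4 core CAAAGTCC, and none of these words contains another. *Cldn2* is at chrX:139800558-139800807 (+ strand), *Cldn3* at chr5:134985964-134986213 (+ strand), *Cldn4* at chr5:134946935-134947184 (- strand), *Cldn7* at chr11:69964529-69964778 (+ strand, the first of 2 listed starts) and *Gjb2* at chr14:57104703-57104952 (- strand).
Cldn2: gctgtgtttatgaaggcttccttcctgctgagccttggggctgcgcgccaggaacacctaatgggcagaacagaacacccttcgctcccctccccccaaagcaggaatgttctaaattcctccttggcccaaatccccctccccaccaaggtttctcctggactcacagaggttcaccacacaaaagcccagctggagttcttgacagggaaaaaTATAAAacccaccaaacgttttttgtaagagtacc
Cldn3: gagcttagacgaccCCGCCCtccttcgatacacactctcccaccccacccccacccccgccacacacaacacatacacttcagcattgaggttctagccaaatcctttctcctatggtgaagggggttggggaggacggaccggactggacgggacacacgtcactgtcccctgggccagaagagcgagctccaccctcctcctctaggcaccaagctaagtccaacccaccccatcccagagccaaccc
Cldn4: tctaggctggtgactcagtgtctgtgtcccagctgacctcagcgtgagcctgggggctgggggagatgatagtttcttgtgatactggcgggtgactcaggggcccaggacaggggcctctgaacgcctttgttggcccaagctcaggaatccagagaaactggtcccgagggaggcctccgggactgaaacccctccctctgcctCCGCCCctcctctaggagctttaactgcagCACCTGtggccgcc
Cldn7: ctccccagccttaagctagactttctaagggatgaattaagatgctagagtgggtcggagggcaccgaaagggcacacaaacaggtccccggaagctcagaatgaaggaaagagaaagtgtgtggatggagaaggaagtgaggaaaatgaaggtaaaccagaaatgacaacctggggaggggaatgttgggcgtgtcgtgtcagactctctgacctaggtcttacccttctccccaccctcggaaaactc
Gjb2: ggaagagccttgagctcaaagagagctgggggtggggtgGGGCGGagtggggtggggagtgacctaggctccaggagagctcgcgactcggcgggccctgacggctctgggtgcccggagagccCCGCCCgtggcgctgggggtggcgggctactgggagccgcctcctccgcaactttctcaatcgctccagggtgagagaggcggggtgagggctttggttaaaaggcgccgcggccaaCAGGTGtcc

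Of the 5 stretches, that of *Cldn2* held a TATA box, which began 35 bases before the start. The *Cldn3* stretch held 1 GC box, 236 bases before the start, and the *Cldn4* stretch a GC box at 44 and an E-box at 14 bases. In *Gjb2* there were 2 GC boxes, at 211 and 126 bases, and an E-box at 9 bases, and in *Cldn7* none of the 5 motifs was found. RefSeq stretches were matched for 27 of the 42 junction genes, 8 of the 11 called ones included. A GC box was found in 18 of the 27 (66.7%) and in 32.9% of the 27025 genes with such a stretch. Those 27025 genes include genes not listed in these tumors, while the 27 are all listed. The 2 shares of each motif are therefore not of like sets, and the difference cannot be read as a trait of junction genes. The E-box was in 5 of 27 (18.5%, all genes 17.1%), in *Cldn4*, *Cldn6*, *F11r*, *Gjb2* and *Tjp3*, which rose, fell or were not called. A TATA box was in 3 of 27 (11.1%, all genes 12.97%), the Grainyhead-like motif in 2 (7.41%, all genes 1.71%), *Cgn* and *Cldn5*, and the HNF4 core in 0 of 27 (all genes 1.22%). A match is a run of letters and not a bound site, and its absence in 250 bases says nothing about the factor.

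*Cldn3* rose most of the 42 genes. It encodes a sealing claudin of simple epithelia and a receptor of the Clostridium perfringens enterotoxin (ENSMUSG00000070473, chromosome 5 from 134986214 to 134987472, + strand). It had 119.6 to 379 normalized counts across the CTL group (median 259) and 2286 to 4045 across the *Filip1l*-knockdown group (median 3232). Every *Filip1l*-knockdown tumor was above every CTL tumor, and the log2 fold change was 3.76 (SE 0.25, 13.5-fold, limma adjusted p = 9.55e-08). The antisense gene *Wbscr25* shares 40 bases with the exons of *Cldn3* (3.18%), and since use of strand in the counting is not stated, reads of that stretch cannot be told apart.

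*Cldn4*, the other enterotoxin receptor, lies 39.3 kb from *Cldn3* (ENSMUSG00000047501, chromosome 5 from 134945119 to 134946934, - strand) and also rose, by less. It ranged from 106 to 324 normalized counts across the CTL group (median 187) and from 357 to 756 across the *Filip1l*-knockdown group (median 519). The groups did not overlap, although the highest CTL tumor, replicate 2, was close to the lowest *Filip1l*-knockdown tumor. Its log2 fold change was 1.45 (SE 0.24, 2.73-fold, limma adjusted p = 0.000258). The 95% intervals of the changes of the neighbours were 3.23 to 4.28 for *Cldn3* and 0.93 to 1.97 for *Cldn4*, and the difference between them was not tested.

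*Cldn7* encodes a claudin that sits along the side walls of epithelial cells and binds the adhesion protein encoded by *Epcam* (ENSMUSG00000018569, chromosome 11 from 69964779 to 69967885, + strand). It had 255 to 572 normalized counts across the CTL group (median 403) and 1524 to 2484 across the *Filip1l*-knockdown group (median 2016). There was no overlap, and *Cldn7* rose by a log2 fold change of 2.31 (SE 0.20, 4.94-fold, limma adjusted p = 1.00e-06). *Cldn15*, which forms a sodium pore in the small intestine (ENSMUSG00000001739, chromosome 5 from 136966616 to 136975858, + strand), was a rare transcript that rose. Its values ran from 3.00 to 8.52 normalized counts across the CTL group (median 7.02) and from 29.2 to 75.2 across the *Filip1l*-knockdown group (median 46.8), again without overlap. Its log2 fold change was 2.70 (SE 0.29, limma adjusted p = 5.97e-06) and 1.92 with a pseudocount of 8. CTL replicate 1 had 3 reads of it, and without that tumor the change was 2.52.

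*Cldn23*, a claudin of the gut lining among other epithelia (ENSMUSG00000055976, chromosome 8 from 35824712 to 35826559, - strand), was the called gene whose groups overlapped. It had 70.1 to 255 normalized counts across the CTL group (median 178) and 243 to 596 across the *Filip1l*-knockdown group (median 453). *Filip1l*-knockdown replicate 1 was below the highest CTL tumor, replicate 5. *Cldn23* rose by a log2 fold change of 1.47 (SE 0.30, limma adjusted p = 0.00119, exact two-sided permutation p = 0.00433), and with the median of chromosome 8 removed the change was 1.66. For each of the other 10 called genes the permutation test gave 0.00216, the smallest p that the arrangements of 12 labels allow.

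*Cldn6*, a claudin of embryonic epithelia that most adult tissues carry little of (ENSMUSG00000023906, chromosome 17 from 23679249 to 23682446, + strand), fell. It had 1853 to 2614 normalized counts across the CTL group (median 2138) and 571 to 1181 across the *Filip1l*-knockdown group (median 833). Every CTL tumor was above every *Filip1l*-knockdown tumor, with a log2 fold change of -1.44 (SE 0.18, limma adjusted p = 2.67e-05).

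*Cldn2*, which forms a pore for cations and water in leaky epithelia (ENSMUSG00000047230, chromosome X from 139800828 to 139811386, + strand), was the most abundant claudin and was not called. It had 23558 to 30492 normalized counts across the CTL group (median 25427) and 24480.3 to 32109 across the *Filip1l*-knockdown group (median 26017). The ranges lay over each other, and the log2 fold change of 0.03 had a 95% interval of -0.14 to 0.21 (limma adjusted p = 0.783). Neither did *Cldn12*, *Cldn18*, *Cldn5* or *Cldn1* pass the adjusted p. Their log2 fold changes were -0.08, -0.04, -0.18 and 0.16, with limma adjusted p from 0.419 to 0.920. Of these, *Cldn18* encodes the claudin of alveolar and gastric epithelium, and its 95% interval of -0.63 to 0.54 was wide. *Cldn34c1* was higher at the adjusted p alone (0.77, limma adjusted p = 0.0111), and since it belongs to a cluster of closely related copies its reads are uncertain.

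Per length, the claudins of the CTL tumors were mainly *Cldn2*, and those of the *Filip1l*-knockdown tumors were less so. Divided by the summed exon length of each gene, the mean level of *Cldn2* was 7859 normalized counts per kb for the CTL group and 8046 for the *Filip1l*-knockdown group. *Cldn6* came next in CTL tumors with 1281 per kb, above *Cldn12* at 316, *Cldn7* at 216 and *Cldn3* at 196. In *Filip1l*-knockdown tumors *Cldn3* came next after *Cldn2* at 2538 per kb, followed by *Cldn7* at 1038, while *Cldn6* was at 488. The neighbours *Cldn7* and *Cldn3* in the CTL order overlapped in their per-kb ranges, from 131 to 294 and from 94.97 to 301.

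As shares of the summed per-kb level of the 12 claudins, which describe the make-up and were not tested, *Cldn2* took 72.0% to 79.1% in CTL tumors (median 75.9%) and 53.8% to 66.9% across the *Filip1l*-knockdown group (median 61.4%). *Cldn3* went from 1.04% to 2.49% (median 2.04%) to between 14.2% and 23.4% (median 20.1%). The share of *Cldn7* had a median of 2.12% in CTL and 7.46% in *Filip1l*-knockdown tumors, and that of *Cldn6* 12.2% and 3.56%. For these 4 genes the shares of the groups did not overlap. The sum itself ran from 9143 to 12072 per kb for the CTL group and from 11932 to 14432 for the *Filip1l*-knockdown group, so the ranges overlapped slightly.

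**Figure D2:**
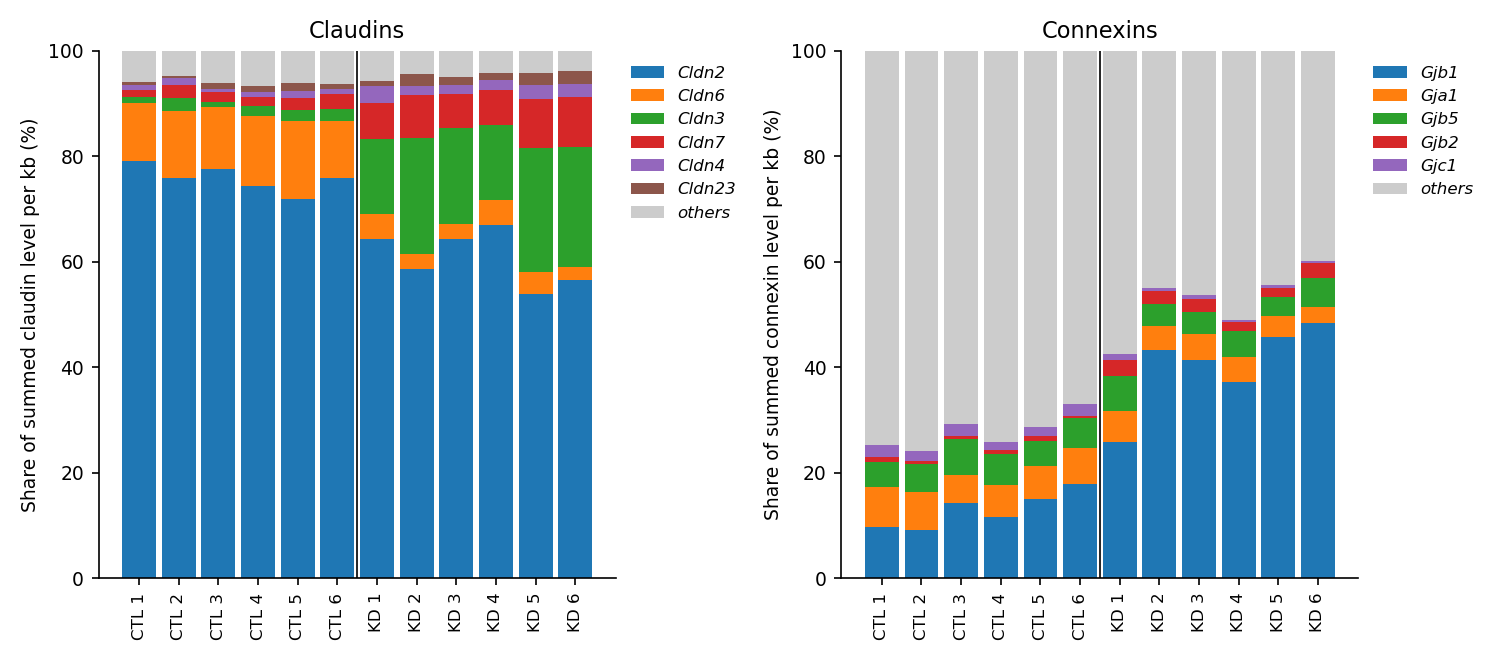
Share (%) of each gene in the summed per-kb level of the 12 claudins (left) and the 9 connexins (right), 1 bar per tumor, with the 6 CTL tumors left of the line and the 6 *Filip1l*-knockdown tumors (KD) right of it and the genes not in the key pooled as others. The *Cldn3* segment grows from a median of 2.04% to 20.1% and the *Gjb1* segment from 12.98% to 42.3%, while *Cldn2* remains the largest claudin in each tumor.

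Among the other tight junction proteins, 1 of 9 (11.1%) was called, against 10.2% of all genes. The adjusted p was passed by 7 of 9 (77.8%), 5 higher and 2 lower, against 41.9% of all genes. *Tjp3*, a zonula occludens scaffold found mainly in epithelia (ENSMUSG00000034917, chromosome 10 from 81273207 to 81291581, - strand), rose. It had 1376 to 2072 normalized counts across the CTL group (median 1626) and 2902 to 5186 across the *Filip1l*-knockdown group (median 4392). The groups were apart, and the log2 fold change was 1.38 (SE 0.14, 2.61-fold, limma adjusted p = 3.28e-06). The exons of *Tjp3* share 40 bases (1.08%) with *Apba3* on the other strand.

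*Marveld1*, which encodes a MARVEL protein of the membrane and lies on chromosome 19, had 2710.2 to 3067 normalized counts across the CTL group (median 2943) and 1899 to 2184 across the *Filip1l*-knockdown group (median 2015). The groups did not overlap, and the log2 fold change was -0.53 (limma adjusted p = 4.43e-06), or -0.17 with the median of that chromosome removed (limma adjusted p = 0.0250). *Tjp1*, the founding zonula occludens scaffold, did not pass, with a log2 fold change of -0.14 (95% interval -0.28 to 0.0028, limma adjusted p = 0.109).

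*F11r*, which encodes the junctional adhesion molecule JAM-A, had the highest level per kb of these 9 genes, 2732 for the CTL group and 3542 for the *Filip1l*-knockdown group. Its values were 6589 to 7950.4 normalized counts across the CTL group (median 7366) and 7748 to 10596 across the *Filip1l*-knockdown group (median 9567). They overlapped in part, and the log2 fold change of 0.37 passed the adjusted p alone (limma adjusted p = 0.00330). *Cgn*, encoding the cytoplasmic linker cingulin, was higher by 0.87 and *Ocln*, encoding occludin, by 0.67, both with groups that did not overlap (limma adjusted p = 3.73e-05 and 0.00176). *Marveld2*, which encodes tricellulin, the protein of corners where several cells meet, lies 43.2 kb from *Ocln* and was higher by 0.46 (limma adjusted p = 0.00240). *Marveld3* had 0.32 (limma adjusted p = 0.209), and with the median of chromosome 8 removed 0.51 (limma adjusted p = 0.0288).

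**Figure D3:**
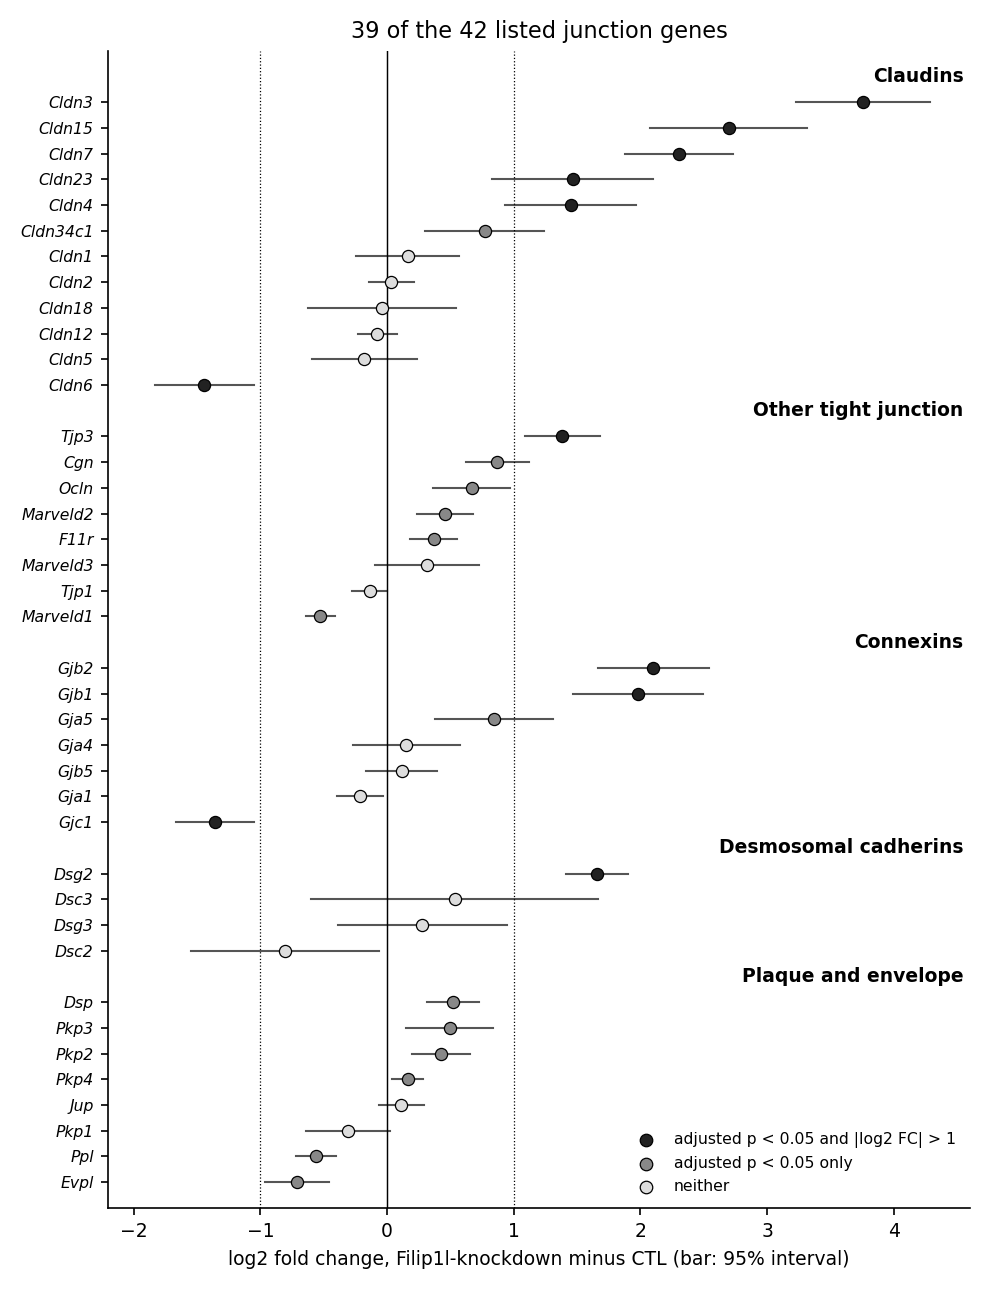
Log2 fold change (*Filip1l*-knockdown minus CTL, 6 tumors each) of junction genes by class, for 39 of the 42 genes, with 95% intervals from limma. Black points passed both thresholds, grey points the adjusted p alone and pale points neither, and dotted lines mark a log2 fold change of 1 and -1. *Cldn3*, at 3.76, lies farthest from 0, and *Cldn6* and *Gjc1* are the black points on the left.

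Connexins gave 3 calls among 9 (33.3%), against 10.2% of all genes, with *Gjb2* and *Gjb1* higher and *Gjc1* lower. *Gjb1* encodes the main connexin of liver and exocrine cells, present in Schwann cells too (ENSMUSG00000047797, chromosome X from 101376378 to 101385629, + strand). It had 460.0 to 838 normalized counts across the CTL group (median 682) and 1205 to 3630.2 across the *Filip1l*-knockdown group (median 2708). No overlap was seen, although *Filip1l*-knockdown replicate 1 stood well below the rest of its group, and *Gjb1* rose by a log2 fold change of 1.98 (SE 0.24, 3.95-fold, limma adjusted p = 1.79e-05). Of 4 listed Schwann cell and nerve markers 2 were called higher (6.2% of all genes), and their summed level was 1700 to 2190 for the CTL group and 2269 to 3132 for the *Filip1l*-knockdown group, with no marker at 0 in any tumor. Their part in the change of *Gjb1* was not tested.

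*Gjb2*, a connexin of secretory epithelia and the inner ear (ENSMUSG00000046352, chromosome 14 from 57098600 to 57104702, - strand), rose from a low level. It had 31.7 to 70.2 normalized counts across the CTL group (median 45.8) and 144 to 294 across the *Filip1l*-knockdown group (median 207). The log2 fold change of these separate groups was 2.10 (SE 0.21, limma adjusted p = 2.82e-06), and it was 1.72 with the median of chromosome 14 removed. *Gjc1*, a connexin of the cardiac conduction system and vascular smooth muscle (ENSMUSG00000034520, chromosome 11 from 102799579 to 102819700, - strand), fell. Its range was 248 to 336 normalized counts across the CTL group (median 292) and 83.9 to 146 across the *Filip1l*-knockdown group (median 110.4). All *Filip1l*-knockdown tumors were below all CTL tumors, with a log2 fold change of -1.36 (SE 0.15, limma adjusted p = 5.92e-06). Of 5 pericyte and smooth muscle markers 1 was called higher, where 6.2% of all genes were. It was *Des*, which skeletal muscle expresses too (log2 fold change 2.04). At the adjusted p alone 1 was lower, *Acta2*, encoding smooth muscle actin (-0.61, limma adjusted p = 0.0145), which lies on chromosome 19. The sum of the 5 markers was 4510 to 8462 for the CTL group and 5415 to 12569 for the *Filip1l*-knockdown group, and without *Des* it was 4126 to 7755 and 2629 to 5462. Of the sum without *Des*, *Acta2* alone had 3176 to 6484 in CTL and 1708 to 3605 in *Filip1l*-knockdown tumors. The markers *Rgs5*, *Myh11* and *Cnn1* did not pass the adjusted p, with log2 fold changes of 0.45, 0.09 and -0.46, so the list had no common direction. What part these cells have in the fall of *Gjc1* was not tested.

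*Gjb5* and *Gja4* had log2 fold changes of 0.12 and 0.15 (limma adjusted p = 0.513 and 0.575). Described without a test, the share of *Gjb1* in the summed per-kb connexin level went from a median of 12.98% (9.14% to 17.8%) to 42.3% (25.8% to 48.4%). The median share of *Gjb2* went from 0.616% to 2.42% and that of *Gjc1* from 2.03% to 0.585%. That of *Gja1* had medians of 6.52% and 4.65%. The sum itself ran from 2758 to 3173 per kb for the CTL group and from 2734 to 4397 for the *Filip1l*-knockdown group, so the ranges overlapped. *Filip1l*-knockdown replicate 1 had the lowest sum and, within its group, the lowest share of *Gjb1*. These shares use the summed exon length, which for *Gja1* was 10257 bases, while its longest transcript had 3889. For *Gjb1* the lengths were 1707 and 1585, so the order of *Gja1* and *Gjb1* in CTL tumors depends on the length used.

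*Gja1*, the most widespread connexin in the body, had 1612 to 2197 normalized counts across the CTL group (median 1937) and 1379 to 1836 across the *Filip1l*-knockdown group (median 1737). The groups overlapped, and its log2 fold change was -0.21 (95% interval -0.39 to -0.03, limma adjusted p = 0.0552). *Gja5*, an endothelial and atrial connexin, was higher at the adjusted p alone (0.85, limma adjusted p = 0.00613). The exons of *Gja5* share 165 bases (2.87%) with *Gpr89* on the other strand. *Gja4* and *Cldn5* are the further endothelial members, and neither passed. Of 10 blood endothelial markers 8 were higher at the adjusted p, which 41.9% of all genes passed in either direction, and 0 were called. The sum of these markers was 3346 to 4229 for the CTL group and 4274 to 6718 for the *Filip1l*-knockdown group, and no marker was at 0. Their part in the values of *Gja5*, *Gja4* and *Cldn5* was not tested.

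Of the 4 desmosomal cadherins, which sit in a cluster on chromosome 18, *Dsg2* was called (25%, against 10.2% of all genes). It encodes the desmoglein of simple epithelia and heart muscle (ENSMUSG00000044393), and it had the highest level per kb of the 4, 293 for the CTL group and 922 for the *Filip1l*-knockdown group. It had 1929.6 to 2854 normalized counts across the CTL group (median 2527) and 6359 to 8913 across the *Filip1l*-knockdown group (median 7429). The groups were far apart, with a log2 fold change of 1.66 (SE 0.11, 3.16-fold, limma adjusted p = 1.40e-07). The antisense gene *Gm16090* shares 330 bases (3.99%) with its exons.

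*Dsc2*, the desmocollin of simple epithelia, had 67.1 to 289 normalized counts across the CTL group (median 211) and 51.0 to 192 across the *Filip1l*-knockdown group (median 98.4). The spread within both groups was wide, and the log2 fold change of -0.81 did not pass (95% interval -1.55 to -0.06, limma adjusted p = 0.0770). It was -1.09 without CTL replicate 3 (limma adjusted p = 0.00531), which made *Dsc2* a called gene and the number of calls 12. *Dsg3* and *Dsc3*, cadherins of stratified epidermis, were rare, with at most 79.5 normalized counts in any tumor, and had log2 fold changes of 0.28 and 0.53 (limma adjusted p = 0.507 and 0.452). Of 13 epidermal markers 8 were listed, with 1 called lower, where 3.97% of all genes were. At the adjusted p 2 were lower, which 41.9% of all genes passed in either direction. The sum of these 8 markers was 1268 to 4117 for the CTL group and 1732 to 3959 for the *Filip1l*-knockdown group.

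None of the 8 plaque and envelope proteins was called, where 10.2% of all genes were, while 6 (75%) passed the adjusted p, 4 higher and 2 lower, against 41.9% of all genes. *Jup*, encoding plakoglobin, a relative of β-catenin, had the highest level per kb, 1861 for the CTL group and 2025 for the *Filip1l*-knockdown group. It had 11163 to 12801 normalized counts across the CTL group (median 12028) and 10308 to 15191 across the *Filip1l*-knockdown group (median 13396). The *Filip1l*-knockdown range enclosed that of the CTL tumors, and the log2 fold change was 0.11 (95% interval -0.06 to 0.29, limma adjusted p = 0.284). *Dsp*, encoding desmoplakin, which binds the keratin filaments, had 6988 to 8811 normalized counts across the CTL group (median 8227) and 8693 to 13036 across the *Filip1l*-knockdown group (median 12065). *Filip1l*-knockdown replicate 1 lay inside the CTL range and the other tumors of its group above it, with a log2 fold change of 0.52 (limma adjusted p = 0.000547). Of the exons of *Dsp*, 499 bases (5.17%) are shared with *Gm10129* on the other strand.

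The plakophilins *Pkp3*, *Pkp2* and *Pkp4*, which link cadherins to desmoplakin, were higher at the adjusted p alone, with log2 fold changes of 0.49, 0.43 and 0.16 (limma adjusted p = 0.0226, 0.00505 and 0.0315). That held for *Pkp2* in 23 of 23 processing alternatives, for *Pkp3* in 21 (highest adjusted p = 0.0533) and for *Pkp4* in 15 (highest adjusted p = 0.0802). *Pkp1*, the plakophilin of stratified epithelia, had -0.31 (limma adjusted p = 0.124). The envelope proteins of stratified epithelia were lower at the adjusted p alone: *Evpl*, encoding envoplakin, had a log2 fold change of -0.71 and *Ppl*, encoding its partner periplakin, of -0.56 (limma adjusted p = 0.000270 and 3.67e-05), and for both the groups did not overlap. In CTL tumors *Evpl* had 995 to 1361 normalized counts and *Ppl* 4114 to 5047. In *Filip1l*-knockdown tumors *Evpl* had 579.9 to 932 and *Ppl* 2707 to 3485.

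*Filip1l*-knockdown replicate 1 had the lowest value of its group in 17 of the 42 junction genes and in 6 of the 9 that rose, and replicate 5 had the highest in 15 of the 42. Without replicate 1 the number of calls was 11, and the log2 fold change of *Cldn3* over all fits that left out 1 tumor ran from 3.57 to 3.90. Of 9 markers of simple epithelium 8 were listed, 5 were called higher and 0 lower, where 6.2% of all genes were called higher and 3.97% lower. The summed level of these 8 markers was 151921 to 199321 for the CTL group and 221296 to 406001 for the *Filip1l*-knockdown group, with none at 0. *Cdh1*, the epithelial cadherin of that list, had 25842 to 32745 normalized counts across the CTL group and 23659.5 to 31489.8 across the *Filip1l*-knockdown group, a log2 fold change of 0.01 (limma adjusted p = 0.950). *Cdh1* lies on chromosome 8, whose median log2 difference was -0.20, and that median is not removed from this value. Skeletal muscle markers were called higher in 7 of 9 (6.2% of all genes), with sums of 2338 to 12363 in CTL and 5218 to 91579.9 in *Filip1l*-knockdown tumors. Of the remaining lists, 4 of 4 neutrophil markers and 1 of 2 listed adipocyte markers were called higher, where 6.2% of all genes were. In either direction 0 of 6 fibroblast, 0 of 4 macrophage and 0 of 4 T cell markers were called, against 10.2% of all genes. At the adjusted p alone 1 macrophage marker was higher and 2 fibroblast markers were lower, the collagen genes *Col1a1* at -0.76 and *Col1a2* at -0.97 (limma adjusted p = 0.0108 and 0.00626). The fibroblast list had a median log2 fold change of -0.54, and its sum was 159034 to 258613 for the CTL group and 74138 to 250941 for the *Filip1l*-knockdown group. No listed marker of any list was at 0 in a tumor. The part of these markers' cells in the changes of the junction genes was not tested.

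**Figure D4:**
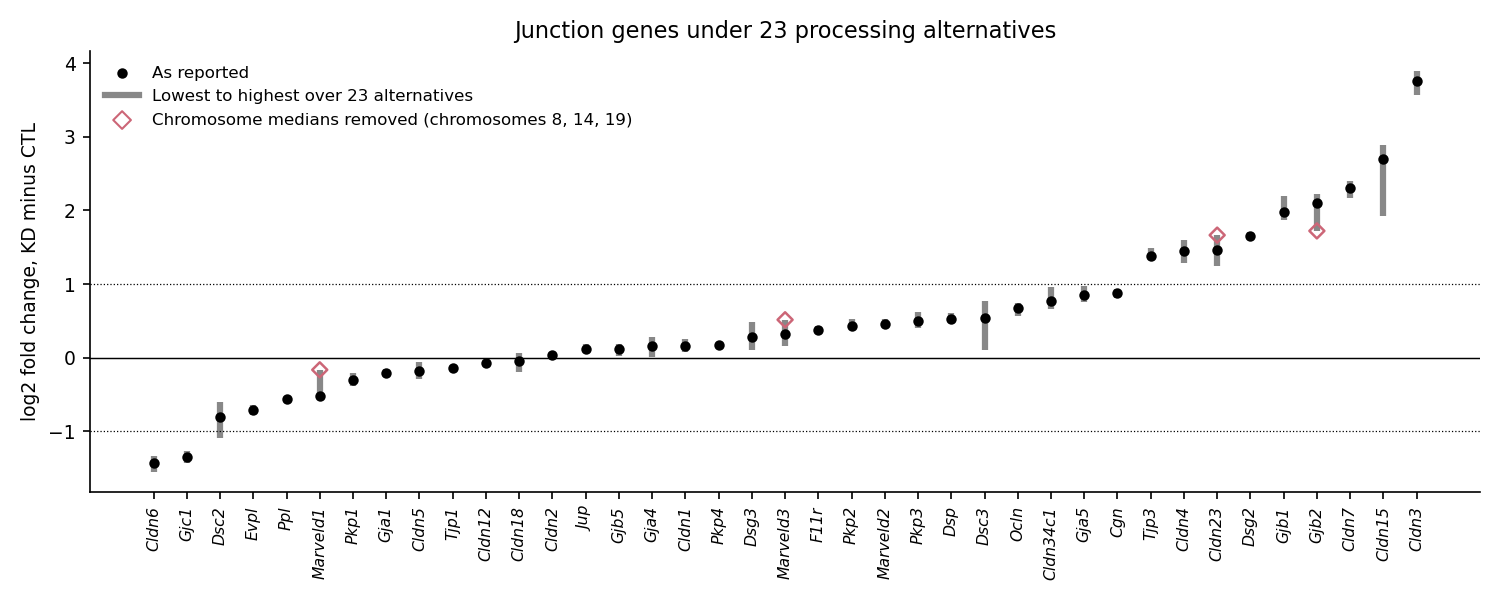
Log2 fold change of each of 39 junction genes as reported (points) and its lowest and highest value over 23 processing alternatives (bars), ordered by the reported value, with diamonds for the 4 genes on chromosomes 8, 14 and 19 after removal of chromosome medians. All 11 called genes stay beyond 1 or -1, *Gjb2* goes from 2.10 to 1.72, and *Marveld1* from -0.53 to -0.17.

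A second list held 49 further genes of cell junctions, such as polarity proteins, nectins, pannexins and adherens junction proteins, of which 42 were listed. Here 3 of 42 (7.14%) were called, against 10.2% of all genes. At the adjusted p alone 21 (50%) passed, 11 higher and 10 lower, against 41.9% of all genes. *Epcam*, the adhesion protein that binds claudin-7, had 3817 to 6904 normalized counts across the CTL group (median 5449.9) and 11791 to 20214 across the *Filip1l*-knockdown group (median 15127). It rose by a log2 fold change of 1.51 with groups that did not overlap (limma adjusted p = 5.79e-06), and it is among the simple epithelium markers as well. *Igsf5*, a junctional adhesion protein of kidney and gut, rose by 1.25 (limma adjusted p = 3.58e-06). *Mpdz*, a scaffold with many PDZ domains that binds claudins, fell from 407 to 544 normalized counts across the CTL group (median 431) to between 84.7 and 276 across the *Filip1l*-knockdown group (median 129). Its log2 fold change was -1.76 (limma adjusted p = 5.34e-05), and the groups did not overlap.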

How the data were processed

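RNA from 12 tumors, 6 per group, was sequenced for the study from NEBNext Ultra II libraries of poly(A) RNA. Per the labels' processing notes and the methods, Trimmomatic 0.36 removed adapters, STAR 2.5.2b aligned the reads to the mouse genome (mm10), and featureCounts of Subread 1.5.2 counted them per gene. The authors deposited the counts divided by DESeq2 size factors, a normalized signal that is not corrected for gene length. Divided by the smallest step of each tumor, 100% of values were whole within 0.01. There were 0 columns of other samples.

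Symbols, positions and exon lengths came from GENCODE vM21 (GRCm38), where 15661 of 15687 identifiers (99.8%) were found. Groups, taken from the labels, were compared with limma 3.58.1 (R 4.3.3, trend of variance on mean) on log2(normalized count + 1) after a filter at a mean of 5, which removed 0 genes, with Benjamini-Hochberg adjustment over all genes. Thresholds were those of the study. Alternatives were other pseudocounts, filters and scalings, no trend, the replicate number as a block, removal of chromosome medians (genes with a mean of at least 50), each tumor left out, and, on the whole reads, edgeR 4.0.16 and DESeq2 1.42.0. edgeR called 1635 genes. Promoter stretches were those of RefSeq on GRCm38.p6.

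The junction genes and the other lists were chosen with earlier results of these data known. Any junction gene could be named, but 3 of the 42 are not reported singly here and count only in totals. Called genes and those of high level per kb in their class are given with lowest, median and highest values, and of the second list the called genes are named. *Cdh1* was named after its values were seen. Nothing in the labels says how tumors were batched, and p-values measure the spread between tumors of each injected population.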

Additional observations from a re-analysis of the deposited data

Results flagged for a closer look

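In 86 groups of 6 values, 43 genes in 2 groups each, the highest or lowest tumor was tested for a gap to its nearest neighbour that is large for the group's range. The test picks out about 1 group in 20 by chance, or 4.3 of 86, and it picked out 5. *Cldn34c1* had 100.4 normalized counts in CTL replicate 2, with 54.8 in the next tumor. *Cldn15* had 3.00 in CTL replicate 1, with 6.80 in the next tumor. *Filip1l*-knockdown replicate 6 accounted for the other 3: *Gja1* at 1379 (next 1673), *Gjb5* at 418 (next 305) and *Dsg3* at 79.5 (next 43.1). Without that tumor the log2 fold change of *Gja1* was -0.16, that of *Gjb5* 0.02 and that of *Dsg3* 0.10.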

How the results depend on the processing

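All 11 called junction genes kept their direction and their call under each of the 23 alternatives. The number called was 11 (9 higher, 2 lower) in 22 of them and 12 without CTL replicate 3, where *Dsc2* was added. The number of all genes called was 1352 (pseudocount 8) to 1712 (without *Filip1l*-knockdown replicate 1). With the replicate number as a block (replicate block), 11 junction genes (9 higher, 2 lower) and 1554 of all genes were called. Nothing in the labels pairs the tumors: the deviations of same-numbered tumors correlated at -0.269 to 0.0990 over genes, and 0 of 6 numbers had its own number as the best match. Among the genes reported singly, signs turned in 2 whose change was near 0. *Cldn2* was -0.0086 after rescaling to the same total and ran from -0.021 to 0.079 when 1 tumor was left out, and *Cldn18* ran from -0.20 to 0.065. The cause was not tested. Adjusted p of *Gja1* was under 0.05 in 7 of 23 alternatives. Depth limits *Cldn15*, *Dsc3* (fewest reads 2) and *Dsg3* most, and intervals cover only the spread between tumors.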
